A study of Mus musculus with 3 samples.

Results

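The miR-26 and miR-30 families were followed through 3 ways of extracting RNA from mouse serum. They comprise 7 mature microRNAs of the 5p arm, chosen by name among the 1881 mouse miRNAs on the array: mmu-miR-26a-5p and mmu-miR-26b-5p, and mmu-miR-30a-5p, mmu-miR-30b-5p, mmu-miR-30c-5p, mmu-miR-30d-5p and mmu-miR-30e-5p, written below without the species prefix. The selection rule used their names and not their measured values, although earlier results of these data were known when they were chosen. The animals were male C57BL/6NJcl mice, 8 weeks old; each extraction used 200 µL of serum, and 1.8 ng of its RNA, carrying the dye Cy3, went on a 1-colour Agilent miRNA microarray. For the array named exoRNeasy, 700 µL of the phenol reagent QIAzol was added to the serum and RNA in the aqueous layer was purified with the exoRNeasy midi kit, as a measure of total serum RNA, so the values of this array are not those of isolated vesicles. For the miRNeasy advanced array the miRNeasy serum/plasma advanced kit was used, and for the mirVana PARIS array the mirVana PARIS kit, each by its maker's protocol. Each kit had 1 array, and whether the extractions shared a serum pool or animals is not given in the labels. There was therefore no replicate, no test of significance was possible, and every error below is the spread between repeated spots of a probe, which leaves out the extraction and labelling.

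MicroRNAs guide Argonaute proteins to messenger RNAs, and pairing of the seed, near the 5′ end of the microRNA, largely decides which transcripts are repressed. Members of a family share the seed and so share many predicted targets. The miR-26 microRNAs lie in introns of Ctdsp phosphatase genes and repress the histone methyltransferase Ezh2, and the miR-30 microRNAs repress among others the epithelial-mesenchymal transition factor Snai1 and the Notch ligand Dll4. Both families are abundant in many solid tissues, and in serum microRNAs are carried by Argonaute complexes, lipoproteins and vesicles.

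The mature sequences are shown because members of a family share the seed and differ by few bases, which is what the members' probes have to tell apart. Of the 7 members, 5 matched an entry of the RefSeq table (GRCm38.p6); miR-30b-5p and miR-30d-5p are named only. The seed, bases 2 to 8, is in capitals, and each sequence runs 5′ to 3′.
miR-26a-5p: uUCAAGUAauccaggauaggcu
miR-26b-5p: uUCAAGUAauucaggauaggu
miR-30a-5p: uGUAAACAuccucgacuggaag
miR-30c-5p: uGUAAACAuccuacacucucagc
miR-30e-5p: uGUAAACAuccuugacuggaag

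The miR-26 members carried the seed UCAAGUA and the miR-30 members the seed GUAAACA. Counting from 1 at the 5′ end, miR-26b-5p differed from miR-26a-5p by C11U and C21U over the 21 aligned bases and was 1 base shorter. From miR-30a-5p, miR-30e-5p differed by the single change C13U, whereas miR-30c-5p differed by C13A, G14C, G18C, G19U and A20C over 22 aligned bases. All of these changes lay outside the seed. GC content was 40.9% for miR-26a-5p, 33.3% for miR-26b-5p, 45.5% for miR-30a-5p, 43.5% for miR-30c-5p and 40.9% for miR-30e-5p.

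In GRCm38.p6, miR-26a-5p is encoded at chr9:119031811-119031832 on the plus strand, in the precursor Mir26a-1 within Ctdspl, and at chr10:126995543-126995564 on the plus strand, in Mir26a-2 within Ctdsp2. The single copy of miR-26b-5p lies at chr1:74394324-74394344 on the plus strand, within Ctdsp1. The sequence of miR-30a-5p lies at chr1:23272274-23272295 on the plus strand, in Mir30a, whose nearest listed family member is Mir30c-2. The miR-30c-5p sequence lies in that precursor at chr1:23291714-23291736 on the plus strand and in Mir30c-1 at chr4:120769584-120769606 on the minus strand. On the same strand, miR-30e-5p lies at chr4:120772660-120772681, and both Mir30c-1 and Mir30e fall within Nfyc, which encodes a subunit of a CCAAT-binding transcription factor. Mir30b and Mir30d neighbour each other on chromosome 15. An array signal for miR-26a-5p or miR-30c-5p thus does not say which of its precursors the RNA came from.

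Few probes gave signal in serum. Detection of a probe required that the scanner software flagged over 0.5 of its spots as well above background, and detection of a miRNA required 1 such probe. By this rule 83 miRNAs (4.41%) were detected with exoRNeasy, 71 (3.77%) with miRNeasy advanced and 134 (7.12%) with mirVana PARIS, with 67 detected on all 3. The lowest signal of a detected probe was 22.0 with exoRNeasy, 12.4 with miRNeasy advanced and 9.56 with mirVana PARIS, where the negative controls averaged 5.26, 4.88 and 4.90 in the same order. A signal near 15 could thus be called with mirVana PARIS and not with exoRNeasy.

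The families were detected on every array but not with all members. On the exoRNeasy array 6 of 7 members were detected, with miRNeasy advanced 3 of 7 and with mirVana PARIS 7 of 7. For miR-26 these were 2, 1 and 2 of 2 members, and for miR-30 4, 2 and 5 of 5 members, on the arrays in that order. The members found on all 3 arrays were miR-26b-5p, miR-30a-5p and miR-30e-5p. When every probe of a miRNA had to be detected, the counts were 2, 1 and 4 of 7 members, and 44, 41 and 75 of all 1881 miRNAs. The scanner software's own flag gave 7, 6 and 7 of 7 members, and 134, 97 and 161 of 1881 miRNAs.

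Signals are given next as deposited intensities in arbitrary units, before any scaling between arrays, with the mean and SD between spots of the probe that stands for the member. Brightness differs between probes for reasons other than abundance, so each member is set only against itself. Because the input was a fixed mass of RNA from a bulk fluid, less of a microRNA in serum, poorer recovery of it by a kit and more of other RNA in the extract cannot be told apart.

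The signal of miR-26a-5p, which represses Ezh2 and is the miR-26 member with several precursors, was 33.1 ± 4.87 with exoRNeasy, 8.59 ± 2.81 with miRNeasy advanced and 23.6 ± 3.22 with mirVana PARIS (SD, n = 15 spots each). Its spots with exoRNeasy, from 23.7 to 39.6, overlapped those with mirVana PARIS, from 18.8 to 30.4. Only 2 of 15 spots with miRNeasy advanced were well above background, so it was not detected there, and no spot of that array, the highest at 13.7, reached the range of the others. The signal of miR-26b-5p, encoded within Ctdsp1, was 37.0 ± 4.12 with exoRNeasy (15 spots), 26.2 ± 4.07 with miRNeasy advanced (15 spots) and 59.6 ± 4.18 with mirVana PARIS (14 spots). All of its spots were well above background on each array. By the detection rule used here the miR-26 pair thus split with miRNeasy advanced, where miR-26b-5p was detected and miR-26a-5p was not. The scanner software's own flag called both detected there.

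Among the miR-30 members, miR-30a-5p, known to repress the autophagy gene Becn1, gave 120.4 ± 11.3 with exoRNeasy, 41.6 ± 5.35 with miRNeasy advanced and 183.7 ± 7.85 with mirVana PARIS (SD, n = 10 spots each). Its spots did not overlap between any of the arrays. For miR-30e-5p, which shares its host gene Nfyc with a miR-30c precursor, the signal was 42.3 ± 3.46 with exoRNeasy (14 spots), 16.7 ± 2.40 with miRNeasy advanced and 89.7 ± 7.23 with mirVana PARIS (15 spots each). The order of the arrays was the same for these 2 members, mirVana PARIS brightest and miRNeasy advanced dimmest. The mean signals of miR-26b-5p, miR-30b-5p and miR-30d-5p had this order too. Among all miRNAs detected on both arrays, 63 of 67 were brighter with exoRNeasy than with miRNeasy advanced. Only 21 of 80 were brighter with exoRNeasy than with mirVana PARIS.

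The signal of miR-30d-5p, a neighbour of miR-30b in the genome, was 35.95 ± 3.56 with exoRNeasy, 11.3 ± 1.95 with miRNeasy advanced, where 6 of 15 spots (40%) were well above background, and 56.4 ± 3.64 with mirVana PARIS. It missed detection with miRNeasy advanced by that share of spots. The signal of miR-30c-5p, known to repress the lipoprotein assembly gene Mttp in liver, was 23.2 ± 3.94 with exoRNeasy, where 10 of 15 spots were well above background, 9.39 ± 1.44 with miRNeasy advanced, where 1 of 15 was, and 21.7 ± 2.88 with mirVana PARIS, where all 15 were. Its signals on the exoRNeasy and mirVana PARIS arrays differed by less than the spread between spots. For miR-30b-5p the signal was 15.3 ± 2.27 with exoRNeasy, 6.20 ± 3.05 with miRNeasy advanced and 28.2 ± 3.66 with mirVana PARIS, with 0, 0 and 15 of 15 spots well above background. It was the only member detected on a single array.

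**Figure D1:**
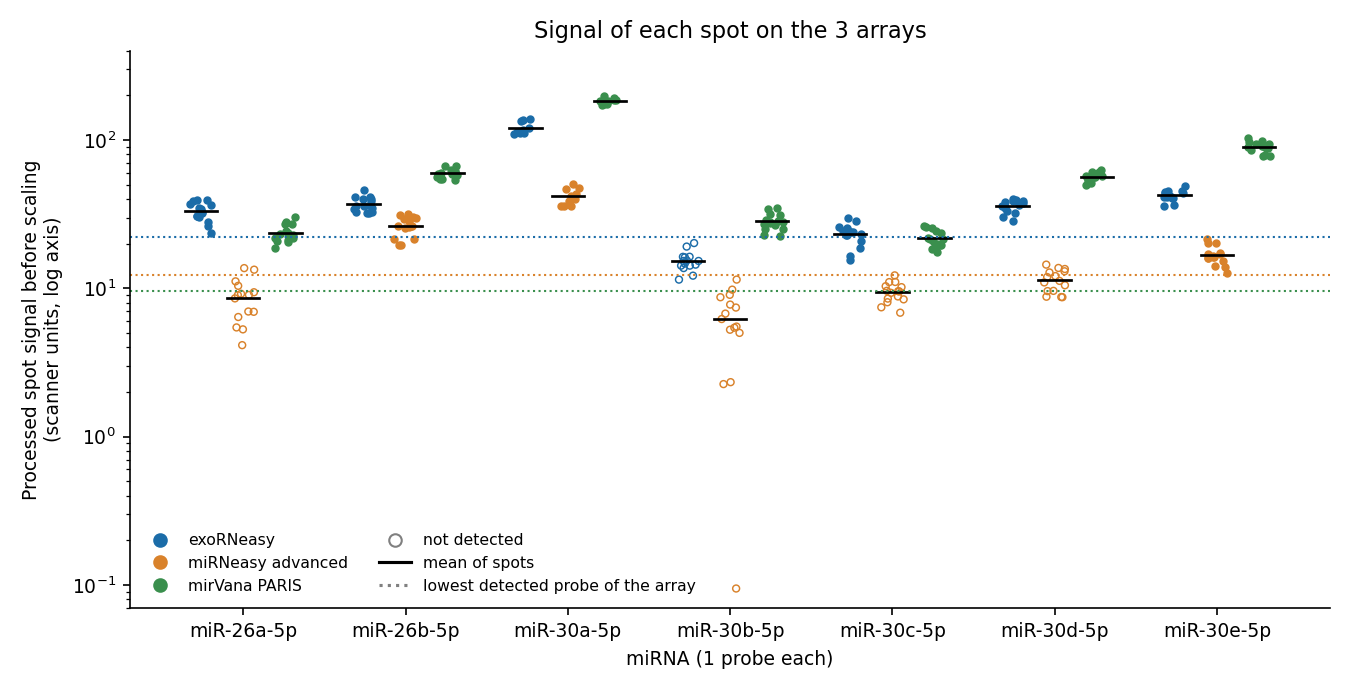
Signal of every spot used for the 7 members (log axis, arbitrary units) on the exoRNeasy, miRNeasy advanced and mirVana PARIS arrays, with open circles where the member was not detected and dotted lines at the lowest detected signal of each array. The miR-30a-5p spots lie farthest from the dotted lines, near 120.4, 41.6 and 183.7, and miR-26a-5p, miR-30b-5p, miR-30c-5p and miR-30d-5p are open with miRNeasy advanced, as is miR-30b-5p with exoRNeasy.

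To set the arrays side by side, each was divided by a value of its own, the 75th percentile of the 106 probes that every array detected. Differences below are log2 of the first-named array minus the second after this scaling, ± the standard error between spots, for members detected on both arrays. The arrays differed in brightness as a whole. Over all miRNAs detected on both arrays the unscaled median was 0.96 in exoRNeasy minus miRNeasy advanced, −0.64 in exoRNeasy minus mirVana PARIS and −1.63 in miRNeasy advanced minus mirVana PARIS. Unscaled differences were above 0 for 63 of 67, 21 of 80 and 2 of 71 miRNAs in these comparisons. After scaling the medians were 0.12, 0.33 and 0.18. A member was counted as higher or lower when the scaled difference was at least 2-fold and over 3 spot errors, which is a rule of size and not a test.

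Between exoRNeasy and miRNeasy advanced, miR-26b-5p and the miR-30 members detected on both arrays lay on opposite sides of the median of all miRNAs. The difference of miR-30a-5p was 0.70 ± 0.07, which placed it 11th of 67 miRNAs from the top, and that of miR-30e-5p 0.52 ± 0.06, which placed it 14th. That of miR-26b-5p was −0.33 ± 0.07, 57th of 67, and 0.51 before scaling. Relative to the median of all 67 miRNAs these were 0.58, 0.39 and −0.45. Of 8 other settings that could change a value relative to this median, 8 left miR-30a-5p above it and miR-26b-5p below it, and 7 left miR-30e-5p above it, the lowest being −0.07. None of the 3 members was past 2-fold in either direction, where 2.99% of all miRNAs were higher and 1.49% lower. Before scaling miR-30a-5p was 2.90-fold brighter with exoRNeasy, and by the same rule of size 2 of the 3 members, miR-30a-5p and miR-30e-5p, were higher, where 43.3% of all miRNAs were.

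The members detected with exoRNeasy alone can be given only a bound in that comparison, since the miRNeasy advanced array limited them. After scaling the bounds, which carry no error, were 1.51-fold higher with exoRNeasy for miR-26a-5p, 1.05-fold for miR-30c-5p and 1.65-fold for miR-30d-5p. The bound of miR-30c-5p, 0.07 in log2, was about the size of the spot error of its exoRNeasy level, 0.07. It therefore does not place miR-30c-5p above 0. Without scaling the bounds were 2.69-fold, 1.88-fold and 2.94-fold. The scaled difference of miR-26b-5p was below 0 and that of miR-26a-5p at least 0.59, but the side of 0 depends on the scaling: the difference of miR-26b-5p was 0.51 without scaling and 0.62 with labelling spike-ins. No value could be given for miR-30b-5p, which neither array detected.

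Between exoRNeasy and mirVana PARIS, 6 members could be compared, and 2 of them passed the rule of size. The difference of miR-26a-5p was 1.45 ± 0.08, a 2.73-fold higher scaled level with exoRNeasy, and that of miR-30c-5p was 1.05 ± 0.08, or 2.08-fold. Without scaling their differences were 0.48 and 0.08, so neither passed the rule, and that of miR-30c-5p was −0.38 when the 75th percentile was taken over all probes. No member was lower by the rule. Over all 80 miRNAs detected on both arrays 25% were higher and 2.5% lower, so a count of 2 in 6 members lies near the share among all miRNAs. Both had mirVana PARIS signals, 23.6 and 21.7, close to 22.0, the lowest signal detected with exoRNeasy. Taking that lowest signal as the limit, a probe with the mirVana PARIS signal of miR-30c-5p could be detected with exoRNeasy only at a difference of 0.97 or more, and one with that of miR-26a-5p only at 0.85 or more. A smaller difference of these members would not have entered the comparison, and miR-30b-5p, with a measured difference of 0.08 against a smallest detectable one of 0.59, could not be compared.

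Of the other 4 members, 3 lay near the middle of all miRNAs in the same comparison and miR-30e-5p lay lower. The difference was 0.28 ± 0.05 for miR-26b-5p, 0.36 ± 0.05 for miR-30a-5p, 0.32 ± 0.05 for miR-30d-5p and −0.12 ± 0.04 for miR-30e-5p. Relative to the median of all 80 these were −0.05, 0.03, −0.01 and −0.44, and miR-30e-5p was 62nd from the top. The scaled difference of miR-30e-5p did not exceed 3 spot errors. Without scaling these 4 were dimmer with exoRNeasy, miR-30e-5p by the most, with a difference of −1.09. On unscaled signals 1 member, miR-30e-5p, was lower by the rule of size and 0 were higher, where 27.5% of all miRNAs were lower and 6.25% higher.

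Between miRNeasy advanced and mirVana PARIS, miR-26b-5p and the miR-30 members detected on both arrays again lay on opposite sides of that median. The difference of miR-26b-5p was 0.61 ± 0.07, 20th of 71 miRNAs from the top, whereas those of miR-30a-5p and miR-30e-5p were −0.35 ± 0.06 and −0.63 ± 0.06, 57th and 63rd. Relative to the median of all 71 miRNAs they were 0.43, −0.53 and −0.81. None of the 3 was past 2-fold, where 14.1% of all miRNAs were higher and 2.82% lower. Without scaling all 3 were dimmer with miRNeasy advanced, miR-30a-5p by 4.44-fold and miR-30e-5p by 5.41-fold, as were most miRNAs: 80.3% of all were lower by the same rule of size on unscaled signals.

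Of the 4 members detected with mirVana PARIS and not with miRNeasy advanced, miR-30d-5p was at least 1.32-fold lower with miRNeasy advanced after scaling. No scaled bound could be given for miR-26a-5p, miR-30b-5p or miR-30c-5p. Without scaling the bounds were 1.93-fold for miR-26a-5p, 2.30-fold for miR-30b-5p, 1.77-fold for miR-30c-5p and 4.63-fold for miR-30d-5p. The scaled direction of these members between miRNeasy advanced and mirVana PARIS, other than miR-30d-5p, was thus not measured.

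**Figure D2:**
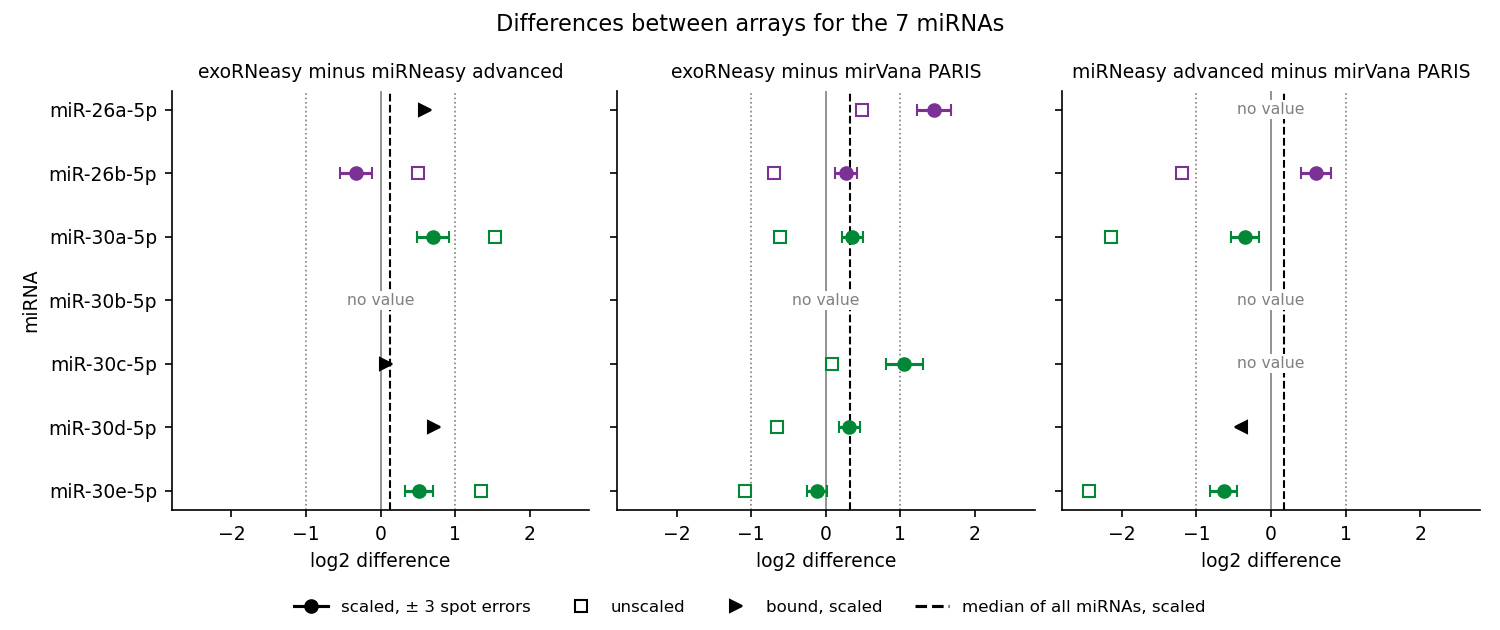
Scaled log2 difference of each member in the 3 comparisons (filled points, bars of 3 spot errors), the unscaled difference (open squares), lower bounds for members detected on 1 of the 2 arrays (triangles) and the median of all miRNAs (dashed line). In exoRNeasy minus miRNeasy advanced miR-26b-5p lies at −0.33 and miR-30a-5p at 0.70, and in miRNeasy advanced minus mirVana PARIS they lie at 0.61 and −0.35.

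A difference between 2 members of the differences of the same array pair does not depend on a factor that multiplies a whole array, so it was computed for every pair of members detected on both arrays. In the comparisons that involve miRNeasy advanced, miR-26b-5p stood apart from miR-30a-5p and miR-30e-5p. In exoRNeasy minus miRNeasy advanced, miR-26a-5p had a bound of 0.59, on the side of the miR-30 members. Detection set this side in part: the lowest detected scaled log2 level was −2.62 with exoRNeasy and −2.61 with miRNeasy advanced. A member detected with exoRNeasy alone thus could not lie far below 0. Whether the contrast was one of miR-26b-5p or of the families was therefore not settled. In miRNeasy advanced minus mirVana PARIS no scaled bound could be given for miR-26a-5p, so where it lay was not measured. In exoRNeasy minus miRNeasy advanced, miR-26b-5p lay below miR-30a-5p by 2.05-fold, a contrast of −1.03 ± 0.10, and below miR-30e-5p by −0.85 ± 0.10. In miRNeasy advanced minus mirVana PARIS, miR-26b-5p lay above miR-30a-5p by 1.93-fold, a contrast of 0.95 ± 0.09, and above miR-30e-5p by 2.36-fold, a contrast of 1.24 ± 0.09. These comparisons share the miRNeasy advanced array, so the 2 pairs of contrasts are not independent. In exoRNeasy minus mirVana PARIS, without that array, the contrast of miR-26b-5p with miR-30a-5p was −0.08 ± 0.07 and that with miR-30e-5p was 0.39 ± 0.07, over 3 spot errors.

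Within the miR-26 family, miR-26a-5p exceeded miR-26b-5p by 1.18 ± 0.09 in exoRNeasy minus mirVana PARIS, a 2.26-fold contrast between microRNAs that differ by C11U, C21U and 1 base of length. It ranged from 0.44 to 1.36 over 8 other settings of background, probes, spots and quantile normalisation, those that could change it. The detection limit described above applies to miR-26a-5p in this contrast. Whether the probes of miR-26a-5p also bind miR-26b-5p was not tested.

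Within the miR-30 family, miR-30c-5p had the highest difference among the 4 members compared in exoRNeasy minus mirVana PARIS, a place that detection set in part, since it could enter only at 0.97 or more and miR-30b-5p, at 0.08, was left out by the same limit. It exceeded miR-30e-5p by 1.17 ± 0.09, a 2.25-fold contrast, miR-30d-5p by 0.74 ± 0.10 and miR-30a-5p by 0.70 ± 0.10. The contrast of miR-30a-5p and miR-30d-5p was 0.04 ± 0.06, smaller than its error. Of the 6 pairs within the family, 5 exceeded 3 spot errors and 1 exceeded 2-fold. Of the 8 pairs between the families in that comparison, 6 exceeded 3 spot errors and 3 exceeded 2-fold. The share over pairs of all miRNAs was not computed, so these counts do not set the family apart. The pair that differs by C13U alone, miR-30a-5p and miR-30e-5p, differed by 0.47 ± 0.06 in exoRNeasy minus mirVana PARIS, by 0.29 ± 0.09 in miRNeasy advanced minus mirVana PARIS and by 0.19 ± 0.09 in exoRNeasy minus miRNeasy advanced, where it did not exceed 3 spot errors. Of these 3 contrasts, the one for exoRNeasy minus mirVana PARIS ranged from 0.11 to 0.75 over the 8 settings that could change it. The contrasts with miRNeasy advanced changed sign over these settings. In miRNeasy advanced minus mirVana PARIS the range was −0.30 to 0.57, above 0 in 6 of 8. In exoRNeasy minus miRNeasy advanced it was −0.02 to 0.40, above 0 in 7 of 8.

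**Figure D3:**
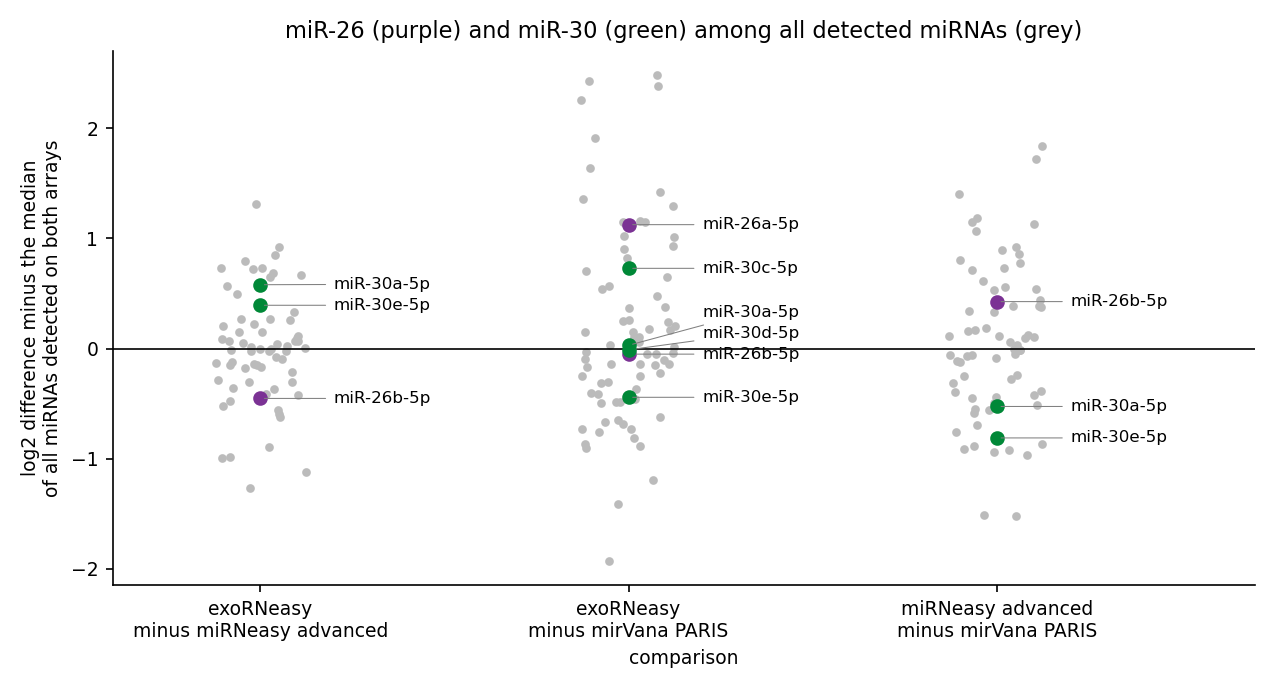
Scaled log2 difference minus the median of all miRNAs detected on both arrays, for those miRNAs in each comparison (grey), with miR-26 members in purple and miR-30 members in green. In exoRNeasy minus mirVana PARIS, where 80 miRNAs are plotted, miR-26a-5p at 1.12 and miR-30c-5p at 0.73 lie above the other members, which lie between −0.44 and 0.03.

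Each member had 2 probes on the array, and miR-30a-5p had 3, which allowed the probes of a member to be compared. For miR-30a-5p the 2 probes detected on every array gave 0.70 and 0.79 in exoRNeasy minus miRNeasy advanced and 0.36 and 0.44 in exoRNeasy minus mirVana PARIS. Both gave −0.35 in miRNeasy advanced minus mirVana PARIS. The 3rd probe of miR-30a-5p and the 2nd of miR-30e-5p were detected with mirVana PARIS alone. Their measured differences in miRNeasy advanced minus mirVana PARIS were −1.87 and −1.84, and in exoRNeasy minus mirVana PARIS 0.15 and −0.52. The 2 probes of miR-30d-5p gave 0.32 and 0.40 in exoRNeasy minus mirVana PARIS. The 2 probes of miR-26b-5p disagreed in sign in that comparison, at 0.28 and −0.04, a gap of 0.32 that lay at the 90th percentile of the gap over 43 miRNAs, also 0.32. In the comparisons with miRNeasy advanced they gave one direction, −0.33 and −0.50 in exoRNeasy minus miRNeasy advanced and 0.61 and 0.46 in miRNeasy advanced minus mirVana PARIS. For miR-26a-5p and miR-30c-5p, the members past 2-fold, only 1 probe was detected on both arrays, so no other probe bears on their values.

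The opposite arms of the same precursors were not detected. None of the 9 3p arms of the miR-26 and miR-30 precursors on the array was detected on the exoRNeasy, miRNeasy advanced or mirVana PARIS array, and 0 of 252, 263 and 257 spots on those arrays were well above background. Their brightest probe averaged 4.63 with exoRNeasy, 1.45 with miRNeasy advanced and 4.17 with mirVana PARIS, which is below the mean of the negative controls of each. The 5p arm is the strand known to be loaded preferentially for both families.

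Among microRNAs that are not members, miR-384-5p shares the miR-30 seed, and miR-30f carries the seed letters at bases 1 to 7. They are shown because targets of the miR-30 seed could also be bound by them; capitals mark the letters of that seed.
miR-384-5p: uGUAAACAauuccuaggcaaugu
miR-30f: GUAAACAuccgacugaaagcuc

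The sequence of miR-384-5p lies at chrX:105344332-105344354 and that of miR-30f at chr4:120772621-120772642, within the Mir30e locus (GRCm38.p6). Neither was detected on any of the 3 arrays.

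Other miRNAs detected on all 3 arrays were ordered by how closely their scaled levels over the 3 arrays, centred on their own mean, followed those of a family. Over 64 candidates the median distance to miR-26b-5p, the miR-26 member detected on all arrays, was 0.61 log2 units. The nearest were miR-21a-5p at 0.08, miR-140-5p at 0.09 and miR-8110 at 0.14. For the mean of miR-30a-5p and miR-30e-5p the nearest were miR-25-3p at 0.19, miR-107-3p at 0.24 and miR-122-5p, the liver microRNA, at 0.27. The distance of miR-30a-5p and miR-30e-5p from each other was 0.34, and that of miR-26b-5p was 0.81 from miR-30a-5p and 0.89 from miR-30e-5p. With 3 arrays a profile has few values, so a short distance is a description.

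**Figure D4:**
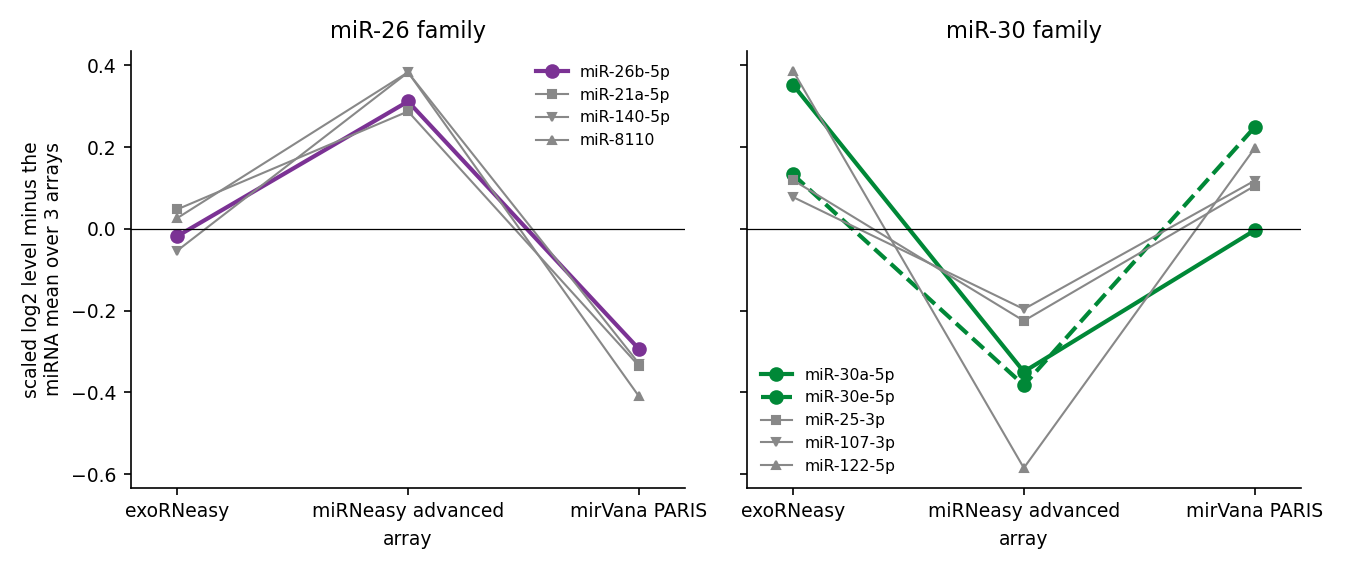
Centred scaled log2 levels on the exoRNeasy, miRNeasy advanced and mirVana PARIS arrays of miR-26b-5p (one panel) and of miR-30a-5p and miR-30e-5p (other panel), each with its 3 nearest miRNAs. The miR-26b-5p profile peaks with miRNeasy advanced, at a centred level of 0.31 against −0.02 on exoRNeasy and −0.29 on mirVana PARIS, whereas miR-30a-5p and miR-30e-5p are lowest there.

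Markers of blood cells and tissues were read beside the members. Of 7 red blood cell miRNAs 6, 6 and 7 were detected on the exoRNeasy, miRNeasy advanced and mirVana PARIS arrays, with summed signals of 7058, 5377 and 20206. Summed signals in the same array order were 1009, 487 and 1368 for platelet and endothelial miRNAs (3, 3 and 4 of 7 detected), 80.8, 79.7 and 229 for white blood cell miRNAs (2, 2 and 4 of 5), 330, 103 and 510 for liver miRNAs (2, 2 and 3 of 4), and 311, 137 and 840 for muscle miRNAs (3 of 4 on each). In exoRNeasy minus miRNeasy advanced the lists' median scaled differences, over members detected on both arrays, were 0.88 for liver, 0.80 for muscle, 0.19 for red blood cell, 0.20 for platelet and endothelial and −0.60 for white blood cell miRNAs. In exoRNeasy minus mirVana PARIS they were 0.38, −0.49, −0.45, 0.57 and −0.16 in that order, and in miRNeasy advanced minus mirVana PARIS −0.49, −1.33, −0.45, 0.29 and 0.44. In both comparisons with miRNeasy advanced, the liver, muscle and red blood cell medians lay on the side of the median of all miRNAs where miR-30a-5p and miR-30e-5p lay. For red blood cell miRNAs the margin in exoRNeasy minus miRNeasy advanced was only 0.07. There miR-451a, at −0.63 relative to the median of all, and miR-144-3p, at −0.98, lay on the side of miR-26b-5p. The white blood cell median lay on the side of miR-26b-5p, and the platelet and endothelial median lay above in both. In exoRNeasy minus miRNeasy advanced, 2 of 2 liver, 2 of 3 muscle, 4 of 6 red blood cell and 0 of 2 white blood cell miRNAs lay above the median of all. In miRNeasy advanced minus mirVana PARIS these were 0 of 2, 0 of 3, 0 of 6 and 1 of 2. These lists had 2 to 6 members detected on both arrays. The part of cell or tissue content in the members' differences was not tested.

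Base composition was set beside the differences as a description, since miR-26b-5p had the lowest GC content of the 5 members with a sequence. Over the miRNAs with a sequence, which share arrays, Pearson's r between GC content and the scaled difference was −0.14 in exoRNeasy minus miRNeasy advanced (59 miRNAs), 0.07 in exoRNeasy minus mirVana PARIS (71 miRNAs) and 0.25 in miRNeasy advanced minus mirVana PARIS (61 miRNAs). Spearman's rho was 0.07, 0.13 and 0.13 for these comparisons. The 33.3% GC of miR-26b-5p lay below the median of 45.5% over those miRNAs.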

How the data were processed

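The authors deposited 1 scanner file per array, holding spot intensity on a linear scale. Per the file headers, Feature Extraction 11.5.1.1 subtracted background with spatial detrending and no normalisation between arrays was recorded; the submitters' processing notes name version 11.5. Per the file headers the 3 arrays lay on the same slide. The value table that the authors deposited repeats these intensities (58594 values per array, each within 0.50%), linear and not centred, with column medians of −2.77 (exoRNeasy), −1.51 (miRNeasy advanced) and −1.44 (mirVana PARIS). All value columns were assigned to samples by their labels.

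Here outlier-flagged spots were dropped (1515, 1474 and 1427 of 56430 non-control spots on exoRNeasy, miRNeasy advanced and mirVana PARIS), and none was saturated. Intensities were divided by each array's 75th percentile over 106 probes, floored at −8 on the scaled log2 scale, and averaged per probe. Each miRNA was read from 1 probe, that with detection on the most arrays and, among equals, the highest mean. A bound set the bright array's level against the higher of the dim array's lowest detected level and its measured level. The members and marker lists were chosen with earlier results of these data known; all members are named, with the 3 nearest miRNAs per family. Steps were tested on simulated data. Python 3.11.15, NumPy 2.4.6, pandas 2.3.3, Matplotlib 3.10.9, R 4.3.3 and limma 3.58.1 (for the normexp and quantile alternatives) were used. Alternatives covered scaling, background, probe choice, spot averaging and detection.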

Additional observations from a re-analysis of the deposited data

How the results depend on the processing

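With 1 array per kit, signal over background and the number of arrays set what could be compared, and no value has an error beyond the spots. No paired analysis was possible because each kit had 1 array. The slide could not be used as a block, since all arrays shared 1. Of 15 other settings, 2 were chosen after seeing the data (subtracting the negative controls, and setting the median of the other miRNAs to 0).

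Scaling moved the members most, and by construction it moves all members of a comparison together. In exoRNeasy minus miRNeasy advanced the members' median of 0.52 was 1.35 without scaling, 1.47 with labelling spike-ins and −0.0686 with normexp. In exoRNeasy minus mirVana PARIS the median of 0.34 was −0.63 without scaling, −1.10 when all probes set the 75th percentile and −0.38 with spike-ins, and the difference of miR-30c-5p reversed to −0.38 when all probes set the 75th percentile. In miRNeasy advanced minus mirVana PARIS the median of −0.35 was −2.15, −2.12 and −2.02 under those 3 settings, and turned to 0.28 with normexp, where miR-30e-5p was 0.28 against −0.63.

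The count of higher members in exoRNeasy minus miRNeasy advanced, 0, was 2 without scaling and with spike-ins, and 1 when all probes were averaged or gave the 75th percentile. In exoRNeasy minus mirVana PARIS the count of 2 was 0 without scaling, with quantile normalisation, spike-ins, normexp or when all probes set the 75th percentile, and 1 with the median over probes, no background correction and the median of other miRNAs. The count of lower members there, 0, was 1 without scaling and 4 when all probes set the 75th percentile. In miRNeasy advanced minus mirVana PARIS the count of lower members, 0, was 3 without scaling, with spike-ins or when all probes set the 75th percentile, and 1 when all probes were averaged.

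The contrast of miR-26b-5p and miR-30a-5p cannot change with a factor per array, and in the comparisons with miRNeasy advanced it kept its sign in the 8 settings that could change it. In exoRNeasy minus miRNeasy advanced it was −0.63 with normexp, −0.65 without background correction and −1.59 with the mean of all probes; in exoRNeasy minus mirVana PARIS it was −0.46 with quantile normalisation; in miRNeasy advanced minus mirVana PARIS it was 1.39 with the mean of all probes. The spread of miR-26 in exoRNeasy minus mirVana PARIS, 1.18, was 0.44 with normexp, 0.52 without background correction and 0.85 with the total gene signal. That of miR-30, 1.17, was 0.57, 0.66 and, with the mean of all probes, 1.66. Detected members numbered 2 on exoRNeasy, 1 on miRNeasy advanced and 4 on mirVana PARIS when every probe had to be detected, and 6 on miRNeasy advanced with the software's flag or with any spot well above background. The cause of these changes was not tested.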
